A study of Mus musculus with 12 samples.

Results

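Chemokine receptors guide thymocytes through the thymus and set the tissues to which mature T cells go. The chromatin accessibility of 9 receptor genes, Ccr9, Ccr7, Ccr8, Ccr6, Ccr4, Ccr2, Cxcr3, Cxcr6 and Cxcr4, was examined in thymic invariant natural killer T (iNKT) cells. The members were all regions of the deposited table that overlapped the body of one of these genes or the 10 kb on either side. This gave 78 regions of 63309, each 500 bp long: 13 at Ccr9, 13 at Cxcr6, 11 at Ccr7, 11 at Ccr4, 9 at Ccr8, 6 at Ccr6, 6 at Ccr2, 6 at Cxcr3 and 3 at Cxcr4.

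ATAC-seq, in which a transposase inserts sequencing adapters into open chromatin, had been performed on iNKT1, iNKT2 and iNKT17 cells of untreated C57BL/6 (wildtype) and Hivep3-/- mice at an age of 8-9 weeks, with 2 libraries for each of the 6 groups. The Hivep3-/- mice carry a germline deficiency of Hivep3, a zinc finger transcription factor, on the C57BL/6 background, and animals of both sexes were used in the study. The subsets were sorted from pooled thymi as CD122+ ICOS- (iNKT1), CD122- ICOS+ Izumo1r+ CD138- (iNKT2) or CD122- ICOS+ Izumo1r- CD138+ (iNKT17) cells, put together for the transposition, and separated again by ICOS and CD138 alone, because the signal of the other markers was lost in the reaction. The sample titles number the libraries as mouse 1 and mouse 2 while the protocol describes pools, so the p-values below measure the spread between these libraries, which may be partly technical.

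Chemokine receptors are G protein-coupled receptors that move a cell along a gradient of their ligand. In the thymus, CCR9 and its ligand CCL25 act in the cortex and at the entry of precursors, CCR7 and CCR4 draw selected thymocytes into the medulla, and CXCR4 holds immature thymocytes in the cortex. Effector T cells carry other receptors, with CXCR3 a classical target of T-bet in type 1 cells, CCR4 and CCR8 frequent on type 2 cells, and CCR6 on type 17 cells. iNKT cells are lipid-reactive T cells that take up such effector programs while still in the thymus, with T-bet in iNKT1 and high PLZF in iNKT2 cells.

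Values are log2 transposase insertions per kilobase after the authors' normalization, and a region was called accessible in a group at a linear mean of at least 5, the study's definition. The normalization made library sums nearly equal (1915051 to 1919037 on the linear scale), so sequencing depth is unknown and no interval for counting error is given. The number of distinct values up to the median of a library ran from 73 to 491, with the fewest in the Hivep3-/- iNKT17 libraries (85 and 73). The Hivep3-/- iNKT2 libraries followed with 91 and 118, against 219 and 159 in C57BL/6 iNKT2 libraries. Low values are coarser in these Hivep3-/- libraries. Between 58 and 64 of the 78 regions were accessible in each library. Of the markers chosen for the sorted subsets, the summed accessibility of the Tbx21 and Ifng loci was highest in iNKT1 libraries, that of Il4 and Izumo1r in iNKT2 libraries within each genotype, and that of Il23r, Sdc1 and Il17re in iNKT17 libraries, whereas other markers went against their subset: the Il2rb sum was higher in iNKT17 (808 and 812 in C57BL/6 and Hivep3-/- cells) than in iNKT1 cells (672 and 697), and that of Gata3 was higher in C57BL/6 iNKT1 (543) than iNKT2 cells (489). The table holds no region at Rag1, Cd8b1, Csf1r and Ncr1, markers of other thymic cells. Of the other markers, the loci of Cd79a, Pax5, Spi1, Lyz2, Epcam, Foxn1 and Rag2 held 1–7 regions each, with locus sums from 1.08 at Rag2 to 426 at Cd79a, and their part in the results below was not tested. The Hivep3 promoter was open in both genotypes, which checks nothing, since the deleted part of the gene is not given in the sources used here.

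The sequences of 6 stretches are given first because the results below turn on the regions they come from. All are from the + strand of GRCm38.p6 (mm10), the build of the table, and were read from the RefSeq genome. In the first 2, capitals mark the T-box consensus AGGTGTGA, which is TCACACCT on the other strand, and in the Cxcr3 stretch also the Runt consensus AACCACA, here TGTGGTT. They come from regions with high accessibility in iNKT1 cells, 3053 bp upstream of the Cxcr3 start site and 9311 bp downstream of the nearest Ccr2 start site. Distances here and below are measured from the middle of the region.
Cxcr3, chrX:101737353-101737472: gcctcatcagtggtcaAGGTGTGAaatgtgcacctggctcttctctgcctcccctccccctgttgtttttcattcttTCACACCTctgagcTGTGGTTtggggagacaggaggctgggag
Ccr2, chr9:124115028-124115107: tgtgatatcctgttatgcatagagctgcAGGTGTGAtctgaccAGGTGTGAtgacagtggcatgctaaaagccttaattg

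The Ccr6 stretch comes from the promoter that was accessible in iNKT17 cells, with capitals on the nuclear receptor consensus TAGGTCA, read on the other strand as TGACCTA.
Ccr6, chr17:8235962-8236061: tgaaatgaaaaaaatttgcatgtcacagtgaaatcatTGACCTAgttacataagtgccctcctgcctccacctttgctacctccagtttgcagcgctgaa

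Both Ccr9 stretches come from regions that lost accessibility in Hivep3-/- iNKT2 cells. Capitals mark the first bases of annotated Ccr9 transcripts in the promoter stretch, and the bZIP consensus TGANTCA and the nuclear receptor consensus, again as TGACCTA, in the exon stretch. The Ccr8 stretch lies downstream of the gene in a region that gained accessibility in Hivep3-/- iNKT2 cells, with capitals on TGANTCA.
Ccr9 promoter, chr9:123767119-123767238: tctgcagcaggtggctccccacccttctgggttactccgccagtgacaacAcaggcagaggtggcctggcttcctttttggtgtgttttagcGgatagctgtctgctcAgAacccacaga
Ccr9 exon, chr9:123768532-123768731: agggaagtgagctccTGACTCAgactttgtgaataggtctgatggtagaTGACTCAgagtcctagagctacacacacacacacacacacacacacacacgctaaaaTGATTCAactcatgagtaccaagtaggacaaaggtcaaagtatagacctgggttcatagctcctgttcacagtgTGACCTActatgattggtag
Ccr8 downstream, chr9:120098421-120098490: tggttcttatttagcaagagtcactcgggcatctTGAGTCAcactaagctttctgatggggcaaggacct

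Letters were searched on both strands over whole regions, as a description and not as a statement about binding. AGGTGTGA was present in 2.91% of the 63309 regions and in 5 of the 78 receptor regions (6.41%), and 2 or more copies were present in 0.0837% of all regions and in 2 of the 78, which are those at Cxcr3 and Ccr2 printed above. The other 3 regions with it lay in the Cxcr3 promoter, 10550 bp downstream of the nearest Ccr4 start site and 18500 bp downstream of that of Ccr7. Of these, the Cxcr3 region was highest in C57BL/6 iNKT1 cells, whereas the Ccr4 and Ccr7 regions were lowest there. Their C57BL/6 means in iNKT1, iNKT2 and iNKT17 cells were 1.90, 3.61 and 2.98 at Ccr4 and 2.67, 4.35 and 3.33 at Ccr7. TAGGTCA was present in 5.45% of all regions and in 5 of the 78, and TGANTCA in 15.9% and in 16 of the 78. AACCACA was present in 17.4% of all regions and 23.1% of the receptor regions, while the GATA consensus, which reads AGATAA, was present in 20.6% and 23.1%. CAGGAAGT (ETS) was present in 9.87% and 8.97%, TTTTCCA (NFAT) in 10.1% and 10.3%, ATCAAAGG (TCF) in 2.36% and 3.85%, and GGAANTTCC (NF-kB) in 1.16% and 2.56%. GCGTGGGNG (Egr) was present in 2.63% of all regions and in 0 of the 78. Median GC content was 48.4% in the receptor regions and 50.0% in all regions.

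**Figure D1:**
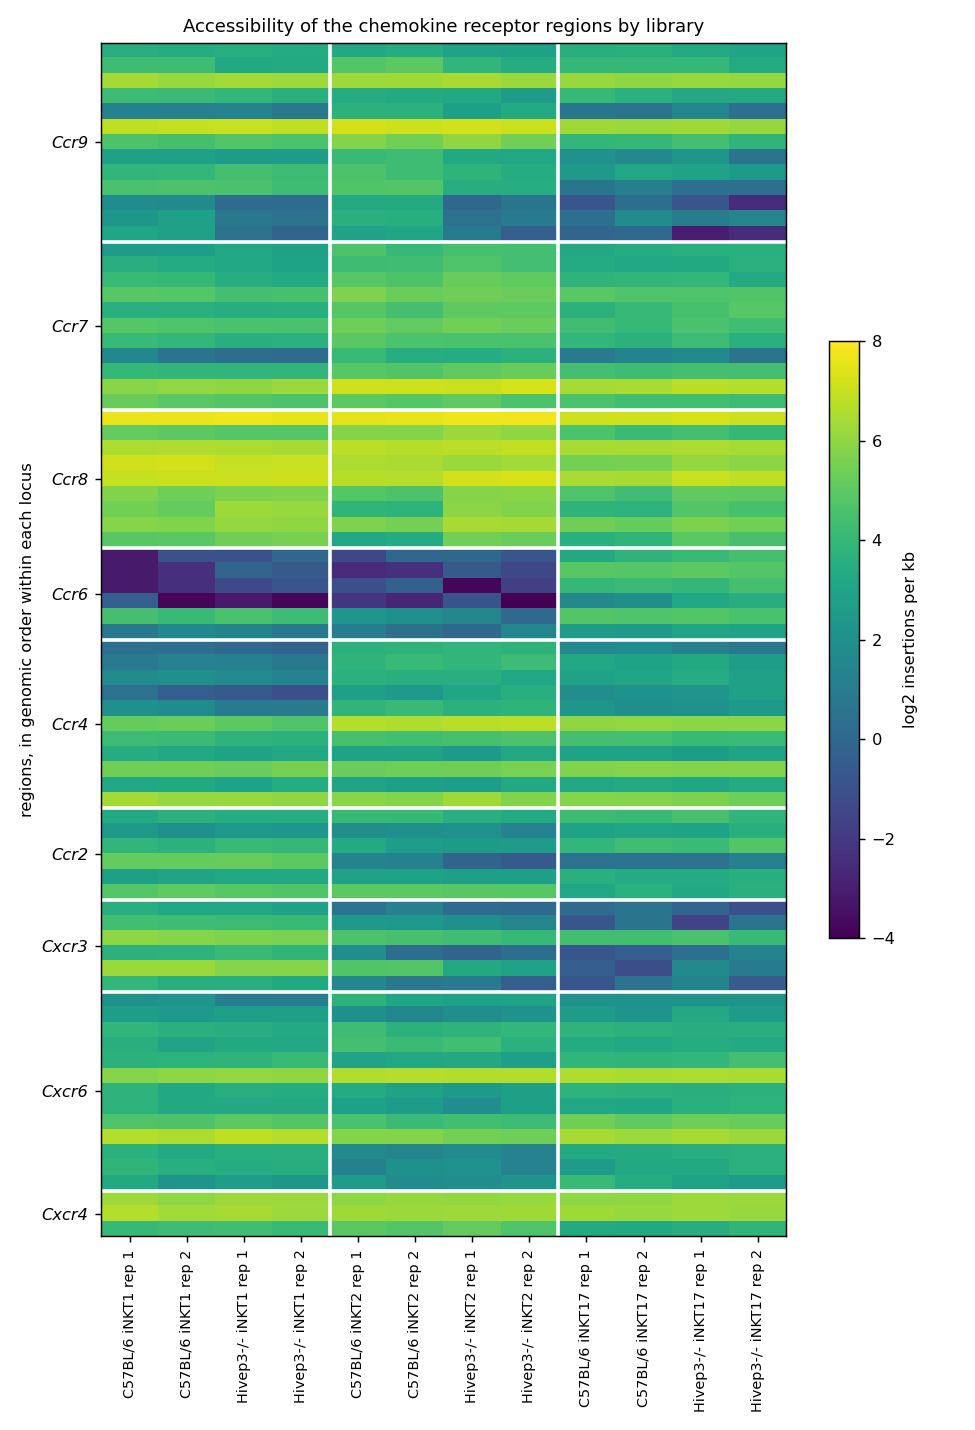
Accessibility (color, log2 insertions per kb) of the 78 chemokine receptor regions (rows, in genomic order within each gene) in the 12 libraries (columns, by subset and genotype). Ccr6 was dark outside iNKT17 cells except for 1 region shared with iNKT1 cells, Cxcr3 was bright mainly in iNKT1 cells, and the last 3 Ccr9 rows darkened in Hivep3-/- iNKT1 and iNKT2 cells. The last Ccr9 row also darkened in Hivep3-/- iNKT17 cells, from values already below the accessible level.

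The subsets were compared first within C57BL/6 mice, as the reference for the effect of Hivep3. A region was called when it changed at least 3-fold and its limma p, adjusted by Benjamini-Hochberg over all tested regions of the table, was under 0.1. Between iNKT1 and iNKT2 cells, 9 of the 72 tested receptor regions were called higher in iNKT1, against 7.33% of all tested regions, and 8 higher in iNKT2, against 8.71%. Against iNKT17 cells, 9 of 70 were called higher in iNKT1 (9.72% of all tested regions) and 4 higher in iNKT17 (10.8%). Between iNKT2 and iNKT17 cells, 13 of 73 were higher in iNKT2 (7.72% of all) and 6 in iNKT17 (8.49%). The median change over the tested receptor regions was −0.01, 0.19 and 0.32 in these 3 comparisons, and 0.01, 0.02 and 0.03 over all regions. With both directions together, 23.6%, 18.6% and 26% of the tested receptor regions were called in these comparisons, against 16%, 20.5% and 16.2% of all tested regions. The genes differed among themselves. In bulk libraries, a region open in fewer cells and a region less open in every cell cannot be told apart.

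Among the receptors of effector cells, Cxcr3, which binds the interferon-induced ligands CXCL9, CXCL10 and CXCL11, was most accessible in iNKT1 cells. Summed over its 6 regions on the linear scale, the Cxcr3 locus (chromosome X, 101731535–101734269, − strand, ENSMUSG00000050232.6) had 195 and 184 insertions per kb in the 2 C57BL/6 iNKT1 libraries, 65.3 and 60.5 in iNKT2 and 24.4 and 26.3 in iNKT17 libraries. The subsets did not overlap. All 6 regions were accessible in iNKT1 cells, 3 in iNKT2 and 1 in iNKT17 cells. In limma, 4 of 6 tested regions were called higher in iNKT1 than in iNKT2 cells and 5 of 6 higher than in iNKT17 cells.

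The intergenic Cxcr3 region from 101737073 to 101737572, which holds the pair of T-box matches, showed the steepest order of the locus. Its log2 values were 6.19 and 6.22 in C57BL/6 iNKT1, 4.72 and 4.77 in iNKT2, and −0.41 and −1.15 in iNKT17 libraries. The iNKT1 mean exceeded that of iNKT17 cells by 6.98 (standard error 0.27, adjusted p = 1e-09), and the iNKT2 mean exceeded it by 5.53 (adjusted p = 1.7e-08). The Cxcr3 promoter region from 101733870 differed less, with means of 5.89, 4.58 and 4.37 in iNKT1, iNKT2 and iNKT17 cells. It passed the adjusted p between iNKT1 and either other subset (1.9e-05 and 3.1e-06) but stayed under 3-fold, and iNKT2 and iNKT17 cells differed by 0.21 (adjusted p = 0.311). The other promoter region, from 101734947, with 1 T-box match, had means of 3.73 ± 0.02 in iNKT1 and 1.11 ± 1.07 in iNKT2 cells (SD, n = 2), a difference of 2.62 (adjusted p = 0.00049).

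Ccr6, the receptor for CCL20, was accessible almost only in iNKT17 cells. The locus (chromosome 17, 8236043–8257141, + strand, ENSMUSG00000040899.14) summed to 92.4 and 96.4 in the C57BL/6 iNKT17 libraries, 25.2 and 21.6 in iNKT1 and 8.14 and 7.53 in iNKT2 libraries. Of its 6 regions, 5 were accessible in iNKT17, 1 in iNKT1 and 0 in iNKT2 cells, and all 5 tested regions were called higher in iNKT17 than in iNKT2 cells.

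At the Ccr6 promoter region (8235832–8236331) the 2 iNKT17 libraries had log2 values of 4.90 and 4.85, the iNKT1 libraries −3.12 and −2.39, and the iNKT2 libraries −2.52 and −2.39. One iNKT1 library sat at its lowest value there. The differences of −7.63 (iNKT1 minus iNKT17, adjusted p = 3.29e-08) and −7.33 (iNKT2 minus iNKT17, adjusted p = 9.82e-08) rest on very few insertions on the low side, and with a pseudocount of 5 on the linear scale they came to −2.74 and −2.73. The exon region from 8251657 was the exception at this locus. It had values of 4.48 and 4.14 in iNKT1, 2.26 and 2.00 in iNKT2, and 4.81 and 4.71 in iNKT17 libraries, so that iNKT1 exceeded iNKT2 cells by 2.18 (standard error 0.34, adjusted p = 0.000159) and differed from iNKT17 cells by −0.45 (adjusted p = 0.298).

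Ccr2, a receptor for monocyte chemoattractant proteins that is also present on memory and effector T cells, had 1 region that set iNKT1 cells apart. The region from 124114688 to 124115187, 9311 bp downstream of the nearest start site and with 2 T-box matches, had log2 values of 5.18 and 5.17 in C57BL/6 iNKT1, 1.38 and 1.29 in iNKT2, and 0.57 and 0.55 in iNKT17 libraries. It was accessible in iNKT1 cells only. The iNKT1 mean was higher by 3.85 than in iNKT2 (standard error 0.30, adjusted p = 4.61e-07) and by 4.61 than in iNKT17 cells (adjusted p = 4.03e-08). The promoter region of Ccr2 from 124103088 had another order, with means of 4.13 (iNKT17), 3.80 (iNKT1) and 3.01 (iNKT2), none of these pairs reaching 3-fold. The Ccr2 gene lies on chromosome 9 (124101950–124113557, + strand, ENSMUSG00000049103.14).

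**Figure D2:**
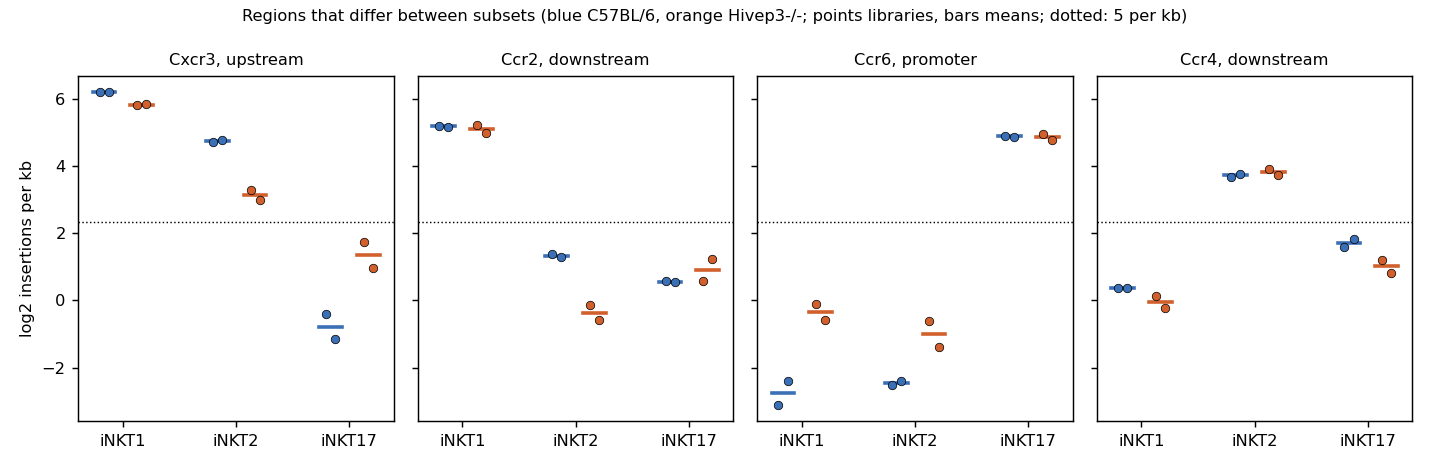
Log2 insertions per kb of 4 regions in each library (points; bars, means of 2 libraries; dotted line, 5 insertions per kb). The Cxcr3 region was high in iNKT1 and intermediate in iNKT2, the Ccr2 region high in iNKT1, the Ccr6 promoter high in iNKT17 and the Ccr4 region high in iNKT2 cells, in both genotypes.

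Ccr4 and Ccr7, the receptors of medullary migration, had their highest locus sums in iNKT2 cells. At Ccr4, which binds CCL17 and CCL22 (chromosome 9, 114490316–114504916, − strand, ENSMUSG00000047898.7), the locus sum was 296 and 292 in the C57BL/6 iNKT2 libraries, 212 and 201 in iNKT1 and 240 and 244 in iNKT17 libraries. Of 11 regions, 5 were called higher in iNKT2 than in iNKT1 cells and 0 the other way. These 5 lay at or downstream of the gene, whereas the 3 regions farthest upstream lie in an exon of Trim71 and had differences under 3-fold between all subsets.

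The Ccr4 region from 114480173 to 114480672, 15616 bp downstream of the nearest start site, had log2 values of 3.68 and 3.77 in C57BL/6 iNKT2, 0.36 and 0.36 in iNKT1, and 1.60 and 1.83 in iNKT17 libraries. Only iNKT2 cells were above the accessible level. The difference was −3.36 for iNKT1 minus iNKT2 (standard error 0.30, adjusted p = 1.47e-06) and 2.01 for iNKT2 minus iNKT17 (adjusted p = 0.000102). The Ccr4 promoter region from 114496359 followed the same order at a higher level, with 6.62 in iNKT2, 6.03 in iNKT17 and 5.23 in iNKT1 cells, each pair under 3-fold and with adjusted p between 2.95e-07 and 0.000286. The region from 114480855 was called lower in iNKT1 than in iNKT17 cells, by −1.96 (adjusted p = 4.78e-05).

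At Ccr7, the receptor for CCL19 and CCL21 (chromosome 11, 99144196–99155077, − strand, ENSMUSG00000037944.8), the C57BL/6 libraries summed to 443 and 389 in iNKT2, 235 and 230 in iNKT1, and 246 and 239 in iNKT17 cells. In 10 of 11 regions the iNKT2 mean exceeded that of iNKT1 cells, and 2 of them were called. The intron region from 99152727 to 99153226 had log2 values of 4.06 and 3.49 in iNKT2, 1.61 and 0.63 in iNKT1, and 0.91 and 1.43 in iNKT17 libraries. The iNKT2 mean was above iNKT1 by 2.66 (the change iNKT1 minus iNKT2 was −2.66, standard error 0.43, adjusted p = 0.000181) and above iNKT17 by 2.61 (adjusted p = 0.000204). The Ccr7 promoter region from 99154984 was open in all subsets, with means of 7.14 in iNKT2, 6.46 in iNKT17 and 5.96 in iNKT1 cells. Each pair differed at an adjusted p of 0.000666 or less and by less than 3-fold.

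Ccr9, the receptor for CCL25, was more accessible in iNKT1 and iNKT2 than in iNKT17 cells of C57BL/6 mice. One annotated transcript starts far upstream, across Lztfl1, while a cluster of start sites lies in the region from 123766937 (chromosome 9, 123678439–123784330, + strand), so that 2 of the 13 regions are Lztfl1 promoters. Of the 13 regions, 8 were called higher in iNKT2 than in iNKT17 cells, and 2 of 11 tested were called higher in iNKT1 than in iNKT17 cells. The intron region from 123763696, 3224 bp upstream of the nearer start sites, had log2 values of 4.54 and 4.63 in iNKT1, 4.76 and 4.81 in iNKT2, and 0.66 and 1.11 in iNKT17 libraries. The excess over iNKT17 cells was 3.69 for iNKT1 (standard error 0.21, adjusted p = 1.42e-08) and 3.90 for iNKT2 (adjusted p = 2.55e-08). Between iNKT1 and iNKT2 cells 9 of the 13 regions passed the adjusted p and 1 was called. Of all 58322 regions tested in this comparison, 32204 passed the adjusted p and 9355 were called, so these Ccr9 counts do not set the locus apart. The called Ccr9 region was the intron region from 123733762. It had 3.72 and 3.72 in iNKT2 against 1.28 and 1.21 in iNKT1 libraries (iNKT1 minus iNKT2 −2.47, adjusted p = 0.000126).

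Ccr8, which binds CCL1 (chromosome 9, 120092114–120094906, + strand, ENSMUSG00000042262.5), had the highest locus sums of the 9 genes, although sums also grow with the number of regions. They were 773 and 769 in the C57BL/6 iNKT1, 651 and 630 in iNKT2, and 483 and 462 in iNKT17 libraries. All 9 regions were accessible in every group. The promoter region from 120091805 was higher in iNKT1 than in iNKT17 cells by 0.53 (adjusted p = 3.5e-05), with iNKT2 cells between them at 6.68, all under 3-fold. The region from 120091066, 799 bp upstream of the start site, was called higher in iNKT1 than in iNKT17 cells (7.17 against 5.51, difference 1.66, standard error 0.09, adjusted p = 8.49e-09). The downstream region from 120098031 was called higher in iNKT1 than in iNKT2 cells (4.91 against 3.29, difference 1.62, adjusted p = 3.56e-06), a difference that fell to 1.58 without C57BL/6 iNKT1 replicate 2 and to 1.53 without C57BL/6 iNKT2 replicate 1, under 3-fold.

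Cxcr6, the receptor for the membrane-bound ligand CXCL16 (chromosome 9, 123806475–123811760, + strand, ENSMUSG00000048521.8), was accessible in all 3 subsets. The gene lies within Fyco1, so most of its 13 regions are also in introns of that gene. Locus sums were 297 and 270 in C57BL/6 iNKT1, 273 and 250 in iNKT2, and 330 and 296 in iNKT17 libraries, so that iNKT1 cells overlapped with both other subsets. A downstream pair of regions was lower in iNKT2 cells. The region from 123818583 had log2 values of 3.84 and 3.57 in iNKT1, 1.27 and 2.00 in iNKT2, and 2.57 and 3.23 in iNKT17 libraries (iNKT1 minus iNKT2 2.07, standard error 0.33, adjusted p = 0.000157). Its neighbour from 123817800 was lower in iNKT2 than in iNKT17 cells by −1.78 (1.59 against 3.37, adjusted p = 3.41e-05). The Cxcr6 promoter region from 123806215 had means of 6.64 (iNKT2), 6.54 (iNKT17) and 5.89 (iNKT1), the first pair differing by 0.10 (adjusted p = 0.335).

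Cxcr4, the receptor for CXCL12 (chromosome 1, 128588199–128592293, − strand, ENSMUSG00000045382.6), had 3 regions, and none was called in any of the 9 comparisons between subsets or genotypes. At its promoter region from 128592389 the 12 libraries ran from 6.16 to 6.68. The upstream region from 128601299 varied more, with C57BL/6 values of 4.94 and 4.79 in iNKT2, 4.03 and 4.24 in iNKT1, and 3.33 and 3.30 in iNKT17 libraries.

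**Figure D3:**
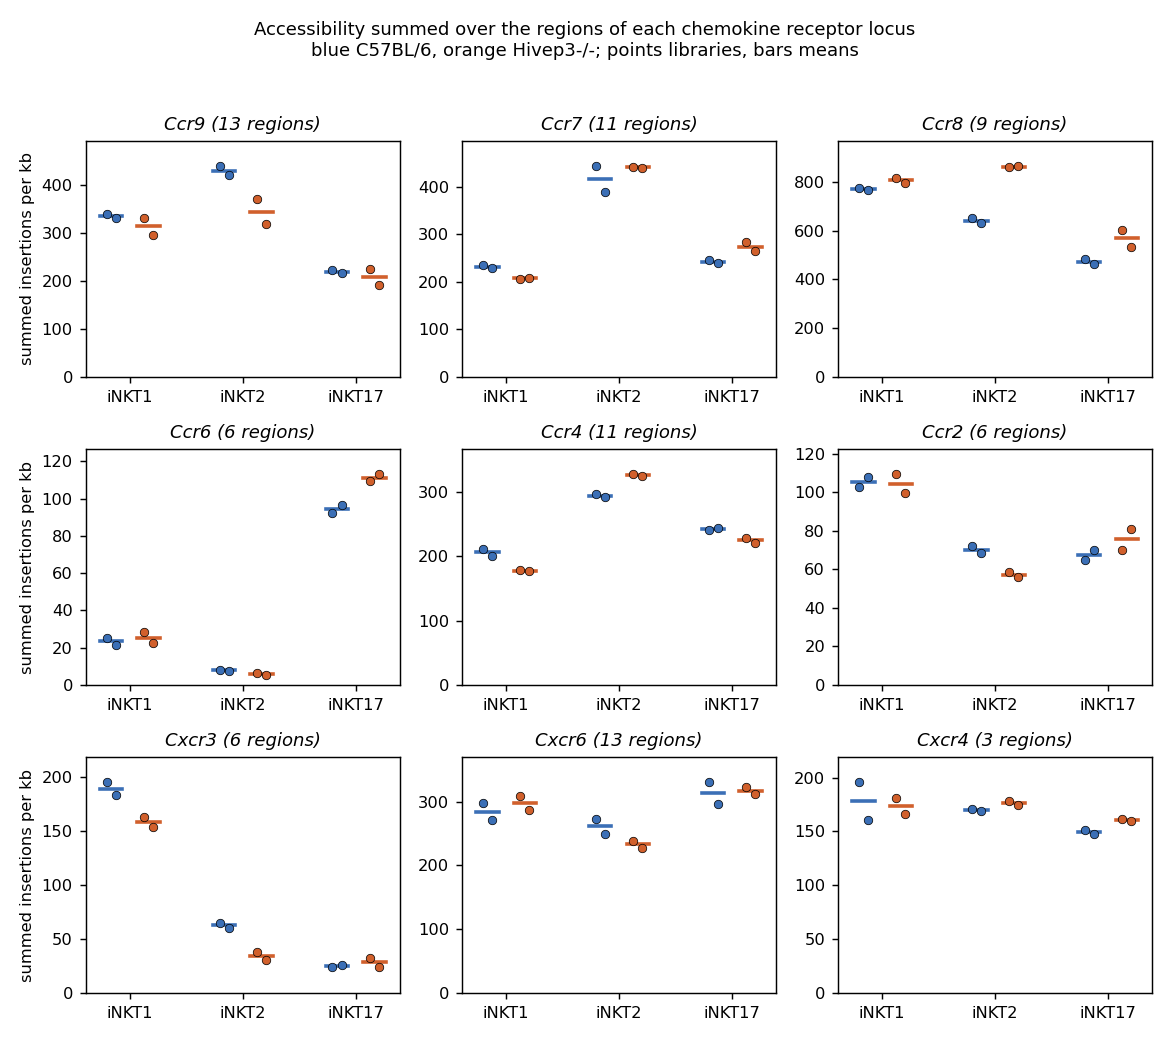
Accessibility summed over all regions of each locus (linear insertions per kb) in the 12 libraries (points; bars, means), with axes starting at 0 and scaled per gene. Cxcr3 was highest in iNKT1, Ccr6 in iNKT17 and Ccr7 and Ccr4 in iNKT2 cells, while Ccr8 in iNKT2 cells was higher in Hivep3-/- (860 and 864) than in C57BL/6 libraries (651 and 630).

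The same subset comparisons were made in Hivep3-/- mice. Between iNKT1 and iNKT2 cells, 9 of 70 tested receptor regions were called higher in iNKT1 (8.77% of all tested regions) and 10 higher in iNKT2 (8.54%). Between iNKT1 and iNKT17 cells, 8 of 70 were higher in iNKT1 (9.48%) and 7 in iNKT17 (9.83%). Between iNKT2 and iNKT17 cells, 8 of 70 were higher in iNKT2 (7.33%) and 9 in iNKT17 (8.25%). Cxcr3 had 5 of 6 regions called higher in iNKT1 than in iNKT2 cells, with the largest difference, 3.86, at the promoter region from 101734947 (adjusted p = 1.69e-05), and 5 of 6 higher than in iNKT17 cells, with 4.61 at the exon region from 101731166 (adjusted p = 1.62e-05). Ccr6 had all 6 regions called higher in iNKT17 than in iNKT2 cells, the largest difference being −6.95 at the intron region from 8239220 (adjusted p = 2.83e-06). Against iNKT1 cells it was −6.75 at the promoter region from 8242213 (standard error 1.16, adjusted p = 0.000246). The 2 Hivep3-/- iNKT1 values there were −3.12 and −3.79, so this difference rests on very few insertions on the low side. It came to −1.54, under 3-fold, in 1 of 22 alternative ways of processing.

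Single regions of the other genes were also called between Hivep3-/- subsets. The Ccr2 region from 124114688 was higher in iNKT1 than in iNKT2 cells by 5.46 (adjusted p = 1.83e-08) and than in iNKT17 cells by 4.20 (adjusted p = 1.02e-07). The Ccr2 promoter region from 124103088 was lower in iNKT2 than in iNKT17 cells by −1.93 (adjusted p = 2.99e-05). The Ccr7 region from 99152727 was lower in iNKT1 than in iNKT2 cells by −3.29 (adjusted p = 2.53e-05) and higher in iNKT2 than in iNKT17 cells by 2.37 (adjusted p = 0.000459). At Ccr4, the region from 114487359 was lower in iNKT1 than in iNKT2 cells by −4.16 (adjusted p = 1.54e-06) and than in iNKT17 cells by −3.38 (adjusted p = 8.32e-06), and the region from 114480173 was higher in iNKT2 than in iNKT17 cells by 2.80 (adjusted p = 6.69e-06).

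The exon region of Ccr6 from 8251657 was higher in Hivep3-/- iNKT1 than iNKT2 cells by 3.57 (adjusted p = 1.87e-06), and the Cxcr6 region from 123817800 by 1.98 (adjusted p = 1.11e-05). This Cxcr6 region was also lower in iNKT2 than in iNKT17 cells by −2.05 (adjusted p = 1.1e-05). At Ccr9, the region from 123763696 was higher than in iNKT17 cells by 4.03 for iNKT1 (adjusted p = 7.77e-09) and 3.08 for iNKT2 (adjusted p = 1.6e-07), and the region from 123733762 was lower in iNKT1 than in iNKT2 cells by −1.96 (adjusted p = 0.000682). The Ccr8 region from 120083516, 8349 bp upstream of the start site, was higher in iNKT2 than in iNKT17 cells by 1.90 (adjusted p = 1.07e-06). The Cxcr3 region from 101737073 was higher in iNKT2 than in iNKT17 cells by 1.78 (adjusted p = 0.00013), and by 1.39, under 3-fold, without Hivep3-/- iNKT17 replicate 2.

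The second question was how the receptor loci of each subset differed between Hivep3-/- and C57BL/6 mice. In iNKT1 cells, 0 of 64 tested receptor regions were called higher in Hivep3-/- cells (0.89% of all tested regions) and 2 lower (0.264%), both at Ccr9. In iNKT2 cells, 2 of 63 were called higher (0.474%), both at Ccr8, and 4 lower (1.2%), 3 at Ccr9 and 1 at Cxcr3. In iNKT17 cells, 0 of 62 were called higher (0.133%) and 0 lower (0.138%), while 11 had an unadjusted p under 0.05 in limma and 6 an adjusted p under 0.1 with less than 3-fold. Of all 54311 regions tested in iNKT17 cells, 8570 had such an unadjusted p and 2525 such an adjusted p. The median change over the tested receptor regions was −0.08, −0.08 and 0.06 in iNKT1, iNKT2 and iNKT17 cells, and over all tested regions −0.02, 0.00 and −0.01. Whether the change differs between subsets was tested separately and is given below for the regions concerned.

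**Figure D4:**
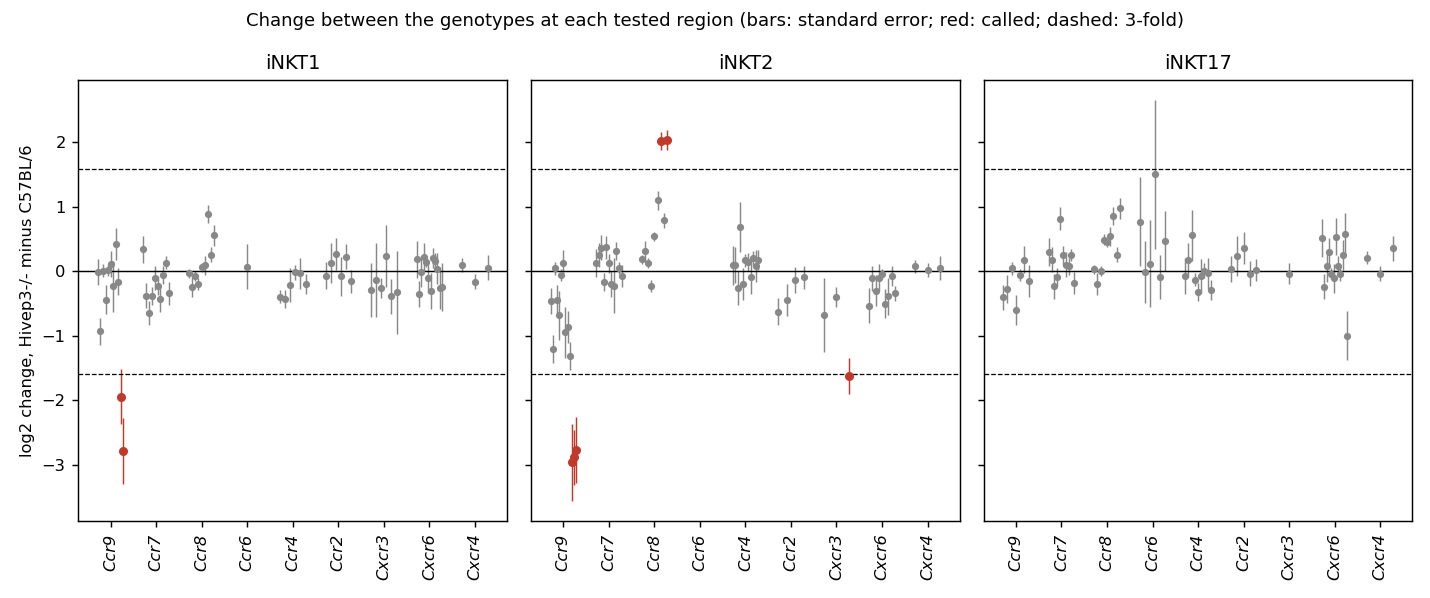
Log2 change between Hivep3-/- and C57BL/6 cells at each tested region, by gene and subset (points; bars, standard error; dashed lines, 3-fold; red, called). The called regions lie at Ccr9 below the lower line in iNKT1 and iNKT2, and at Ccr8 (above) and Cxcr3 (below) in iNKT2 cells.

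At Ccr9 the calls lay at the cluster of start sites and downstream of it. In iNKT2 cells 11 of its 13 tested regions had lower means in Hivep3-/- cells, with a median change of −0.86, while in iNKT1 cells the median over 11 tested regions was −0.16. At the promoter region from 123766937 the log2 values were 3.32 and 3.32 in C57BL/6 and 0.06 and 0.66 in Hivep3-/- iNKT2 libraries, a change of −2.96. In iNKT1 libraries they were 1.82 and 1.69 against 0.20 and 0.18, all below the accessible level, so this region was not tested there. In iNKT17 libraries they were −0.78 and 0.35 against −0.78 and −2.58, where the genotypes overlap.

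The Ccr9 exon regions lost accessibility in both iNKT1 and iNKT2 cells. In the region from 123768322 the iNKT1 libraries had 2.35 and 2.86 with Hivep3 and 0.82 and 0.51 without it, and the iNKT2 libraries 3.64 and 3.58 with and 0.51 and 0.94 without it. Its changes were −1.94 (standard error 0.43) in iNKT1 and −2.88 in iNKT2 cells, and the former missed the threshold without C57BL/6 iNKT1 replicate 2 (−1.69, adjusted p = 0.117) or Hivep3-/- iNKT1 replicate 2 (−1.78, adjusted p = 0.149). In the region from 123768947 the iNKT1 libraries had 3.10 and 2.86 with Hivep3 and 0.49 and −0.10 without it, and the iNKT2 libraries 2.92 and 3.11 with and 0.90 and −0.41 without it, with changes of −2.78 and −2.77. In each of these, both C57BL/6 libraries lay above both Hivep3-/- libraries and above the accessible level, and the Hivep3-/- libraries below it. The low side rests on few insertions, and with a pseudocount of 5 on the linear scale none of the Ccr9 changes between genotypes reached 3-fold: those of the region from 123768947 came to −1.06 in both subsets, those of the region from 123768322 to −0.76 and −1.37, and that of the promoter region to −1.25. In iNKT17 libraries the region from 123768947 had −0.10 and 0.10 with Hivep3 and −3.06 and −2.58 without it. All lay below the accessible level, the latter at the lowest value of their libraries, so the region was not tested there. The region from 123768322 was not tested there either, and its genotypes overlapped (0.39 and 1.79 with Hivep3, 1.10 and 1.47 without it). The exon regions also overlap the annotated gene AC165425.1, and the table cannot assign their signal to one of the genes.

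Upstream, the intron region from 123763696 had 4.76 and 4.81 in C57BL/6 and 3.46 and 3.49 in Hivep3-/- iNKT2 libraries, a difference of −1.31 (adjusted p = 0.00203), under 3-fold. In iNKT1 cells it had 4.54 and 4.63 against 4.55 and 4.30. The strongest region of the locus, from 123754293 and 12627 bp upstream, ran from 6.85 to 7.22 over all iNKT1 and iNKT2 libraries and from 6.08 to 6.27 in iNKT17 libraries. The Lztfl1 promoter region from 123716248, inside the long Ccr9 transcript, had changes under 3-fold, −1.20 for iNKT2 (adjusted p = 0.00346) and −0.93 for iNKT1 (adjusted p = 0.0192). Over the locus the sum was 440 and 421 in C57BL/6 and 372 and 319 in Hivep3-/- iNKT2 libraries.

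Ccr8 gained accessibility in Hivep3-/- iNKT2 cells at and downstream of the gene. The exon region from 120093489 to 120093988 had log2 values of 3.86 and 3.74 in C57BL/6 and 5.89 and 5.75 in Hivep3-/- iNKT2 libraries, a rise of 2.02 (standard error 0.14, adjusted p = 1.32e-05), or 4.06-fold. The region from 120098031 to 120098530, 6166 bp downstream of the start site, had 3.21 and 3.38 against 5.43 and 5.24, a rise of 2.04 (standard error 0.16, adjusted p = 2.78e-05). The Hivep3-/- iNKT2 libraries lay above the C57BL/6 libraries in both regions, and the rise stayed above 3-fold and called without any single library.

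The other Ccr8 regions of iNKT2 cells had smaller differences between the genotypes. The promoter region from 120091805 changed by 0.55 (adjusted p = 0.000655), the region from 120092475 by 1.11 (adjusted p = 0.000682) and the region from 120095822, the promoter of the neighbouring Gm47050, by 0.79 (adjusted p = 0.000965), all under 3-fold. The 3 regions 7529–9140 bp upstream had changes of 0.12–0.31 with adjusted p of 0.104 or more, and the region from 120091066 had −0.23 (adjusted p = 0.128). The locus sum was 651 and 630 in C57BL/6 and 860 and 864 in Hivep3-/- iNKT2 libraries. In C57BL/6 iNKT1 libraries the exon region had 5.46 and 5.18, so the Hivep3-/- iNKT2 values lay above these.

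Smaller differences in the same direction were measured at Ccr8 in the other subsets. The exon region from 120093489 went from 5.32 to 6.21 among iNKT1 libraries (adjusted p = 0.0022) and from 3.80 to 4.66 among iNKT17 libraries (adjusted p = 0.00944). The region from 120098031 changed by 0.56 (iNKT1, adjusted p = 0.0577) and 0.98 (iNKT17, adjusted p = 0.01). None reached 3-fold. In iNKT17 cells, 5 of the 6 receptor regions with an adjusted p under 0.1 were at Ccr8, and the sixth was an intron region of Ccr7 from 99146981, which changed by 0.82 (adjusted p = 0.0325).

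**Figure D5:**
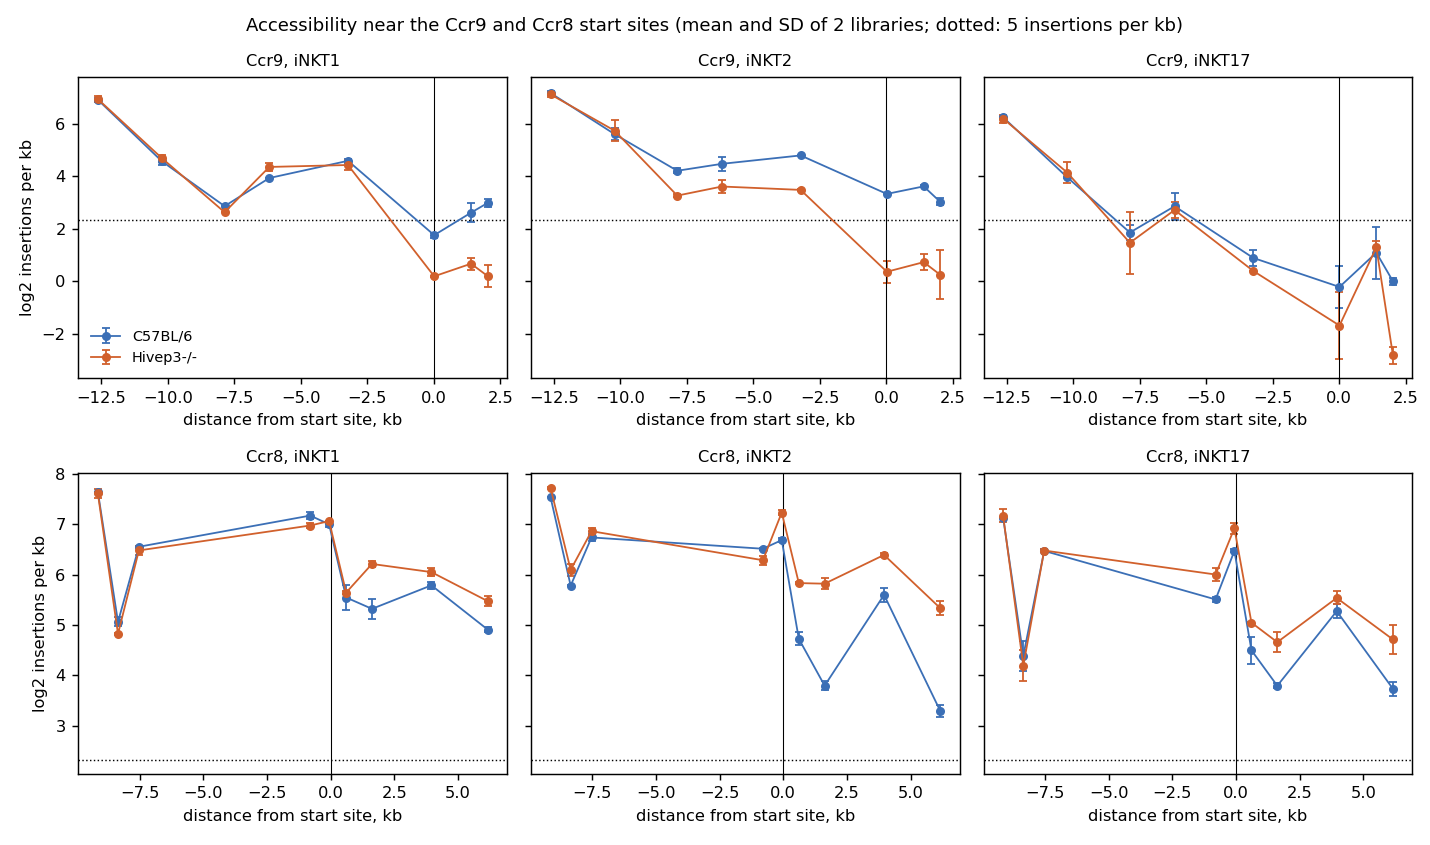
Log2 insertions per kb (mean and SD of 2 libraries) of the Ccr9 (top) and Ccr8 (bottom) regions against their distance from the start site in kb, by subset (blue, C57BL/6; orange, Hivep3-/-; dotted line, 5 insertions per kb). At Ccr9 the genotypes part at the start site and downstream of it in iNKT1 and iNKT2 cells, and by less over the nearer upstream regions in iNKT2 cells, and at Ccr8 they part downstream of the start site, most widely in iNKT2 cells. In iNKT17 cells the genotypes also part at the Ccr9 region farthest downstream, below the accessible level.

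At Cxcr3 the upstream region from 101737073 lost accessibility in Hivep3-/- iNKT2 cells. The log2 values were 4.72 and 4.77 in C57BL/6 and 3.28 and 2.98 in Hivep3-/- iNKT2 libraries, a change of −1.62 (standard error 0.27, adjusted p = 0.00272). Both C57BL/6 libraries lay above both Hivep3-/- libraries, although the change was −1.47, under 3-fold, without Hivep3-/- iNKT2 replicate 2 (adjusted p = 0.025) and −1.21 with a pseudocount of 5. In iNKT1 libraries the same region had 6.19 and 6.22 against 5.80 and 5.83, and in iNKT17 libraries −0.41 and −1.15 against 1.74 and 0.97, both below the accessible level and not tested between the genotypes.

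The locus sum of Cxcr3 was 65.3 and 60.5 in C57BL/6 and 37.6 and 30.4 in Hivep3-/- iNKT2 libraries. Of the 4 iNKT1 marker loci, 3 also had a lower mean sum in Hivep3-/- than in C57BL/6 iNKT2 cells: Ifng with 12.8 against 41.9, Tbx21 with 76.7 against 112 and Klrb1c with 54.7 against 67.5. The fourth, Il2rb, had 617 against 580. The part of these in the Cxcr3 value was not tested. Cxcr3 is X-linked, and the median change of the tested X-linked regions was −0.015 (iNKT1), 0.04 (iNKT2) and 0.022 (iNKT17).

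The remaining receptors had no called change between the genotypes. Ccr7, which had 10, 11 and 10 tested regions in iNKT1, iNKT2 and iNKT17 cells, changed by medians of −0.28, 0.12 and 0.15. Its promoter region from 99154984 changed by 0.14, 0.06 and 0.26 (adjusted p = 0.551, 0.775 and 0.209). At Ccr4, all 6 regions tested in iNKT1 cells had lower means in Hivep3-/- cells, with the promoter region from 114496359 at −0.39 (adjusted p = 0.0352), and 8 of 11 regions had higher means in iNKT2 cells, with adjusted p above 0.1. Cxcr6 had 9 of 9 tested regions with lower means in Hivep3-/- iNKT2 cells, with changes of −0.04 to −0.53, of which 1, from 123814197, passed the adjusted p (−0.34, adjusted p = 0.0675).

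Ccr6 was tested between the genotypes at all 6 regions in iNKT17 cells, where the median change was 0.30. Its region from 8242213 had values of 1.66 and 1.93 in C57BL/6 and 3.13 and 3.46 in Hivep3-/- iNKT17 libraries and was not called, and the promoter region from 8235832 changed by −0.01 (adjusted p = 0.994). Ccr6 was below the accessible level in iNKT2 cells of both genotypes and was not tested there, and 1 region was tested in iNKT1 cells, with a change of 0.08. Ccr2 had changes of −0.15 to 0.27 in iNKT1 and −0.03 to 0.37 in iNKT17 cells, and the region from 124100252 changed by −0.63 in iNKT2 cells (adjusted p = 0.0708). The 3 Cxcr4 regions changed by −0.16 to 0.36 in all subsets. None of these medians or ranges shows that the genotypes were alike, since the threshold leaves changes under 3-fold uncalled.

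Whether the change between genotypes differed from subset to subset was tested with interaction terms. Between iNKT1 and iNKT2 cells, 1 of 73 tested receptor regions was called, against 3.06% of all tested regions, between iNKT1 and iNKT17 cells 3 of 72 (1.42%), and between iNKT2 and iNKT17 cells 2 of 74 (1.02%). The Cxcr3 region from 101737073 was called in both comparisons with iNKT17 cells. No Ccr8 region reached the 3-fold threshold of this test, although some of the 9 passed the adjusted p alone. Between iNKT1 and iNKT2 cells 5 did (6264 of 59926 over the whole table). Between iNKT1 and iNKT17 cells 2 did (2202 of 60543), and between iNKT2 and iNKT17 cells 3 (1984 of 60297). The rise of the Ccr8 region from 120098031 was smaller in iNKT1 than in iNKT2 cells by a log2 difference of −1.47 (adjusted p = 0.00315) and larger in iNKT2 than in iNKT17 cells by 1.06 (adjusted p = 0.0405). For the exon region from 120093489 these differences were −1.13 (adjusted p = 0.00581) and 1.16 (adjusted p = 0.0161).

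Other genes of the family were counted for comparison. Of 14 other chemokine receptor genes, 11 had regions, 90 of which are not counted above. Between the genotypes, 1 of 83 tested was called in iNKT1 cells, a rise at Ccrl2, against 1.15% of all tested regions. In iNKT2 cells 0 of 76 were called (1.68% of all tested regions), and in iNKT17 cells 0 of 81 (0.271%). Between C57BL/6 iNKT1 and iNKT2 cells, 6 of 80 tested regions of these genes were called higher in iNKT1, against 7.33% of all tested regions. A further 8 were called higher in iNKT2, against 8.71%. Of 20 ligand genes, 14 had regions, 44 in all. Between the genotypes 0 of these were called in any subset, against the same shares of all tested regions as above. Some passed the adjusted p alone: 2 of 43 for iNKT1 (5098 of 54145 over the whole table), 12 of 27 for iNKT2 (9036 of 55049) and 4 of 20 for iNKT17 (2525 of 54311). Between C57BL/6 iNKT1 and iNKT2 cells, 18 of 42 tested ligand regions were called higher in iNKT1 (7.33% of all tested regions) and 0 higher in iNKT2 (8.71%). Against iNKT17 cells 24 of 43 were higher in iNKT1 (9.72%) and 2 higher in iNKT17 (10.8%). All 5 tested Ccl3 and all 5 tested Xcl1 regions were among those higher in iNKT1 than in iNKT2 cells.

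The promoter regions with the most similar profile over the 12 libraries were listed by Pearson correlation among 17308 genes with an accessible promoter region, as a description without a test, since the 12 libraries are 6 groups in pairs and share their normalization. For Ccr7 they were Pdcd1 (r = 0.988), Meis3 and Htr2a (both 0.978). For Ccr4 they were Gm2800 (0.992), Trav7n-6 (0.988) and Slc23a2 (0.983), and for Cxcr3 Tec (0.986), Ggt5 (0.983) and Gm37863 (0.982). For Ccr6 they were Gm25920, Gm44851 and Gm43005 (0.985 to 0.986), for Cxcr6 Scnn1g, Mir107 and Gm2553 (0.988 to 0.989), and for Ccr2 Gm23184 (0.956), Gm32401 (0.953) and Disc1 (0.949). The profiles of Ccr8 (Ms4a6c 0.943, Hs3st3a1 0.915, Rnu3b4 0.905), Cxcr4 (Kntc1 0.947, Gm6283 0.940) and the far upstream promoter of Ccr9 (Pgam5 0.920, Mtg1 0.916, Gm14167 0.912) varied little over the libraries, with SDs of 0.265, 0.141 and 0.270, so their likeness carries less. This Ccr9 region is also a promoter region of Slc6a20a and Gm17200, so its profile may not be that of Ccr9. The Ccr9 cluster of start sites was not used for likeness. The SD of the Cxcr6 profile was 0.31, near that of Ccr9, so its likeness also carries less.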

How the data were processed

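Thymic iNKT1, iNKT2 and iNKT17 cells of C57BL/6 and Hivep3-/- mice were profiled by ATAC-seq in 12 libraries, 2 per group. The deposited table holds log2 insertions per kilobase in 63309 regions, which the authors made by trimming reads to 50 bp (Trimmomatic 0.39, in the submitters' processing notes), running the ENCODE ATAC-seq pipeline on mm10, merging peaks with chromVAR, counting transposase insertions and normalizing with voom. All 12 value columns matched a sample and 0 were left unused.

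Regions were assigned with GENCODE vM21 to 9 genes with 10 kb on either side. Regions within 1000 bp of a start site were called promoter regions. Group means were fitted in limma 3.58.1 (R 4.3.3) over the whole table, without a block, with a variance trend (6 residual and 7.17 prior degrees of freedom). A region was tested where either compared group reached a linear mean of 5, or for an interaction where any group of the term did. In an interaction, a compared change could therefore lie wholly below that level. The p-values were adjusted by Benjamini-Hochberg. Calls needed an adjusted p under 0.1, following the study, and 3-fold. The 12 comparisons were 3 between genotypes, 6 between subsets and 3 interactions. The fit and the calls were also run on simulated data. There, changes were planted only in regions with higher means than the Ccr9 regions called between genotypes, so calls at low values were not covered. Regions described were the promoter region with the highest mean, the strongest region, the called region with the largest change per comparison, and every called genotype change; others named beside them, such as regions under 3-fold, were chosen after their values were seen. Likeness was Pearson's r between promoter regions. Members, gene lists, markers and motifs were chosen with earlier results of these data known. Differences between replicates correlated by 0.120–0.167 between groups of the same genotype, 0.113–0.171 of the same subset and 0.0911–0.174 of neither, and the numbers in the titles name mice that the protocol describes as pools, so no pairing was used in the reported tests. Alternatives changed the filter, pseudocount (1 or 5), scaling, variance model, threshold, block, libraries and flanks. A few genes are not reported here. Python 3.11.15, numpy 2.4.6, pandas 2.3.3, pysam 0.24.0 and matplotlib 3.10.9 were used.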

Additional observations from a re-analysis of the deposited data

Results flagged for a closer look

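The change between genotypes differed between subsets at 4 chemokine receptor regions, each by the interaction term in limma (adjusted p under 0.1 and at least 3-fold).

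At the upstream Cxcr3 region from 101737073, the change in iNKT1 cells minus that in iNKT17 cells was −2.52 (adjusted p = 0.00654), and that in iNKT2 minus iNKT17 cells was −3.75 (adjusted p = 0.00235). In iNKT17 cells the region was below the accessible level in both genotypes, with values between −1.15 and 1.74, so the higher Hivep3-/- values there rest on few insertions.

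At the Ccr9 exon region from 123768322, the difference was −2.14 between iNKT1 and iNKT17 cells (adjusted p = 0.099) and −3.08 between iNKT2 and iNKT17 cells (adjusted p = 0.0283). The latter was not called without either C57BL/6 iNKT2 library (adjusted p up to 0.103), and the former was lost under 17 of 22 alternatives.

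At the Ccr2 region from 124114688, the change in iNKT1 minus that in iNKT2 cells was 1.61 (adjusted p = 0.0383), with both iNKT2 groups below the accessible level. It was lost under 9 of 23 alternatives, over which it ran from 0.31 to 1.85 (1.38 without Hivep3-/- iNKT2 replicate 2).

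At the Ccr6 promoter region from 8235832, the change in iNKT1 minus that in iNKT17 cells was 2.43 (adjusted p = 0.0971). The iNKT1 values, −3.12 and −2.39 in C57BL/6 and −0.10 and −0.59 in Hivep3-/- libraries, were all below the accessible level. The call was lost under 12 of 23 alternatives, down to 0.18 (adjusted p up to 0.626).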

How the results depend on the processing

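Adding a pseudocount of 5 to the linear values lowered most counts of called receptor regions. Between the genotypes it left 0 in iNKT1 (2 as reported) and 2 in iNKT2 cells (6), the 2 of Ccr8, with those of Ccr9 and Cxcr3 lost. Between C57BL/6 subsets it left 1 (iNKT1 against iNKT2, 17) and 5 (iNKT2 against iNKT17, 19), between Hivep3-/- subsets 7 (19), 8 (15) and 5 (17), and of the interactions 0 (1), 0 (3) and 1 (2). A pseudocount of 1 left 1 in iNKT1, 0 of the iNKT1 against iNKT2 and 1 of the iNKT1 against iNKT17 interactions. Without the filter the counts were 2 in iNKT17 cells (0) and 2 and 4 in the interactions of iNKT2 with iNKT1 and iNKT17. With a filter on the mean over all libraries they were 1 in iNKT1, 1 in iNKT17 and 2 for the iNKT1 against iNKT2 interaction, and named regions of Ccr9 (the 3 with called genotype changes included), Ccr4 and Ccr6 could not be tested. Gene bodies without flanks, which hold fewer regions, gave 5 (iNKT1 against iNKT2) and 5 (iNKT1 against iNKT17) in C57BL/6, 7, 7 and 11 in Hivep3-/- cells, and 0 and 1 for the interactions of iNKT2 with iNKT1 and iNKT17. Repeated quantile normalization gave 0 for the iNKT1 against iNKT2 interaction, and an adjusted p under 0.05 gave 1 for that of iNKT1 against iNKT17. Apart from the flanks and the all-library filter, the cause of these shifts was not tested.

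Leaving out 1 library gave 1–2 calls between genotypes in iNKT1 cells (1 without replicate 2 of either genotype), 5–6 in iNKT2 and 0 in iNKT17 cells. The interactions gave 0–2 (iNKT1 against iNKT2), 1–2 (iNKT1 against iNKT17) and 1–3 (iNKT2 against iNKT17, with 1 without either C57BL/6 iNKT2 library), and the other comparisons stayed within 13–21.

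With the replicate block the counts between genotypes were 2, 6 and 0, as without it, and it changed no other count. Of 1221 values of 54 named changes under the alternatives, 1135 kept their direction and call, 86 kept the direction and lost the call, and 0 reversed. Setting library medians equal shifted them by −0.0026 to 0.0016. Low values rest on few insertions, and with 2 libraries per group and unknown depth, changes under 3-fold remain uncalled.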
